A study of Mus musculus with 18 samples.

Results

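The 9 genes followed here, Myb, Runx1, Cbfb, Spi1, Fli1, Etv6, Hhex, Meis1 and Ikzf1, encode DNA-binding factors of blood stem and progenitor cells, or in the case of Cbfb the partner subunit of one. They were taken by gene symbol from 18194 genes that the platform annotation ties to a probe set of their own, a probe set being a group of short oligonucleotides that together read 1 transcript. Of several probe sets of a gene, the brightest on average was taken, and its log2 value was read on every array. All 9 passed the filter on dim genes, which left 12720 genes for testing.

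RNA came from G1E-ER4 cells, a mouse erythroid progenitor line that lost its own Gata1 by gene disruption and had GATA1 returned as a fusion with the ligand-binding domain of the estrogen receptor. Estradiol switches the fusion on, and the cells then mature toward red cells. The 6 groups of 3 arrays were cells before estradiol (0 h) and cells after 3, 7, 14, 21 and 30 h in 20 nM estradiol, so every group carried the Gata1 disruption and the fusion, and all came from 1 line. Cells kept for the same hours without the hormone were not analysed here, so estradiol, GATA1 activity and culture time cannot be told apart. The labels name the 3 arrays of a time biological replicates without saying that they were separate cultures, so the p-values measure the spread among these arrays, which may be technical. RNA was read in bulk, and fewer cells making a transcript cannot be told apart from less transcript per cell.

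Some of these factors sustain the growth of blood progenitors, others drive the genes of a lineage, and several act as partners or as rivals. RUNX1 binds DNA as a heterodimer with CBFB. SPI1 (PU.1), FLI1 and ETV6 all belong to the ETS family, but PU.1 drives myeloid genes and opposes GATA1, FLI1 drives megakaryocyte genes, and ETV6 is a repressor. MYB sustains progenitor growth and must decline for red cells to finish maturing.

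The arrays were alike within a time (Pearson r across probe sets 0.995 to 0.998) and their medians lay between 4.04 and 4.09 on the log2 scale. Their 40th percentile, the limit of the dim filter, lay between 3.20 and 3.35. Of 11 erythroid marker genes on the platform 10 were above that limit on all 3 arrays of every time, and of the 10 tested 8 were higher and 0 lower at 30 h. Summed as a mean per array, the 11 granulocyte and macrophage markers stayed between 3.03 and 3.31. Of these 5 were tested, of which 3 were higher at 30 h (Csf1r 0.64, S100a9 0.56 and Camp 0.47, all from levels of at most 3.80) and 1 was lower (Cd68, -0.79), while Mpo and Elane were under the filter. The 9 lymphoid markers lay between 2.69 and 2.95. Of the 4 tested, 2 were higher at 30 h (Cd8a 0.51 and Cd4 0.44, from levels of at most 3.68) and 0 lower. The mean of the 8 mast cell and basophil markers fell from between 4.71 and 4.88 at 0 h to between 3.18 and 3.30 at 30 h. Of the 7 tested, 4 were lower at 30 h (Cpa3 -5.42, Ms4a2 -3.43, Gzmb -2.87 and Hdc -1.14). Tpsb2 was higher (0.45), and 2 were not called. Between 0 h and 30 h 69.5% of tested genes were called, that is, had an adjusted p under 0.05 in limma with Benjamini-Hochberg adjustment over all 12720 genes. The members are read against such background shares throughout.

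The stretches just upstream of the start sites of Myb, Runx1 and Cbfb are shown first, because Myb fell furthest of the 9 genes while Runx1 and Cbfb, which make 1 complex, moved differently. They were read 5′ to 3′ on the gene's strand from the RefSeq promoter table of GRCm38.p6, each ending at the base before the start site. Capitals mark the DNA words searched, on either strand. Runx1 has an entry for each of its 2 start sites, both on the minus strand: the distal one (chr16:92826075-92826254) and the proximal one (chr16:92697330-92697509). Cbfb lies on the plus strand (chr8:105170524-105170673) and Myb on the minus strand (chr10:21160985-21161174).
Runx1 distal: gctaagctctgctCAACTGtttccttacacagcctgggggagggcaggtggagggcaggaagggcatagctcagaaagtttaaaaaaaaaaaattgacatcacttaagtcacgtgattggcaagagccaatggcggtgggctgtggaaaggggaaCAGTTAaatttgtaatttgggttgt
Runx1 proximal: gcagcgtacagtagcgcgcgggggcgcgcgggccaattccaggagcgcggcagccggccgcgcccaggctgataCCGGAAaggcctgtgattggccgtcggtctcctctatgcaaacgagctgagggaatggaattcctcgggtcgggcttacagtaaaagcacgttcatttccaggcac
Cbfb: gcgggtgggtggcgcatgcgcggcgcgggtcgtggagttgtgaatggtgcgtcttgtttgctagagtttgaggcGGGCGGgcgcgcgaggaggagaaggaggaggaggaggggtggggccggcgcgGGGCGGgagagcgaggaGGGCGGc
Myb: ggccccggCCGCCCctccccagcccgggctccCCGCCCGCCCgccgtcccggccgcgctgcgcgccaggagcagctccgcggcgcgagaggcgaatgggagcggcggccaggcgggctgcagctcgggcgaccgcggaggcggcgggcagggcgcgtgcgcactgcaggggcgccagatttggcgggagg
The 2 Runx1 starts differ in the words they hold. The distal stretch has the MYB words CAACTG (167 to 162 bases upstream) and, on the other strand, TAACTG (25 to 20 bases upstream), and the proximal stretch has the ETS word CCGGAA (106 to 101 bases upstream). Cbfb and Myb show only GC boxes, GGGCGG.

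In all, 9 promoters of 7 members were searched over 250 bases, Spi1 and Fli1 having none among them. The MYB words (CAACTG and TAACTG, as well as CAACGG and TAACGG) were in 1 of 9, the distal Runx1 promoter, against 23.7% of 32851 promoters of all genes. CCGGAA was in 2 (Runx1 proximal and Meis1), against 12% of all promoters, and the RUNX word TGTGGT in 1 (Meis1), against 14%. GGGCGG was in 5 of 9 promoters, those of Cbfb, Myb, Etv6, Ikzf1 and Hhex, against 32.7%. The GATA words (AGATAA and AGATAG, as well as TGATAA and TGATAG) were in 0 of 9, against 26.5%, and TATAAA was in 0 of 9, against 12.4%. These are matches of letters in a short window and say nothing about binding.

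Over the time course the 9 genes parted widely. At 30 h Myb, Etv6, Hhex, Cbfb and Ikzf1 were lower than at 0 h, Fli1 and Meis1 were higher, and Runx1 and Spi1 were not called. That is 5 of 9 lower and 2 of 9 higher, beside 33% and 36.6% of all tested genes. The median change of the members was -0.24, against 0.09 for all tested genes. The changes ran from a 24.7-fold fall of Myb to a 3.26-fold rise of Fli1, and only Myb, Etv6, Hhex, Cbfb and Fli1 spanned at least 1 log2 unit between their highest and lowest time means. With a mean per time, the F test over time called 8 of 9 members, all but Spi1, beside 74.3% of all genes. The arrays at 30 h and 0 h did not overlap for 6 of 9 members, beside 72.3% of all genes. The gap between 3′ and 5′ control probe sets, a sign of RNA length or labelling, also widened between these times. It went from 1.89 ± 0.084 (SD, n = 3) to 2.20 ± 0.11 for Actb, from 1.13 ± 0.065 to 1.52 ± 0.16 for Gapdh and from 1.79 ± 0.21 to 2.41 ± 0.076 for Tfrc, and its part in the members' changes was not tested.

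**Figure D1:**
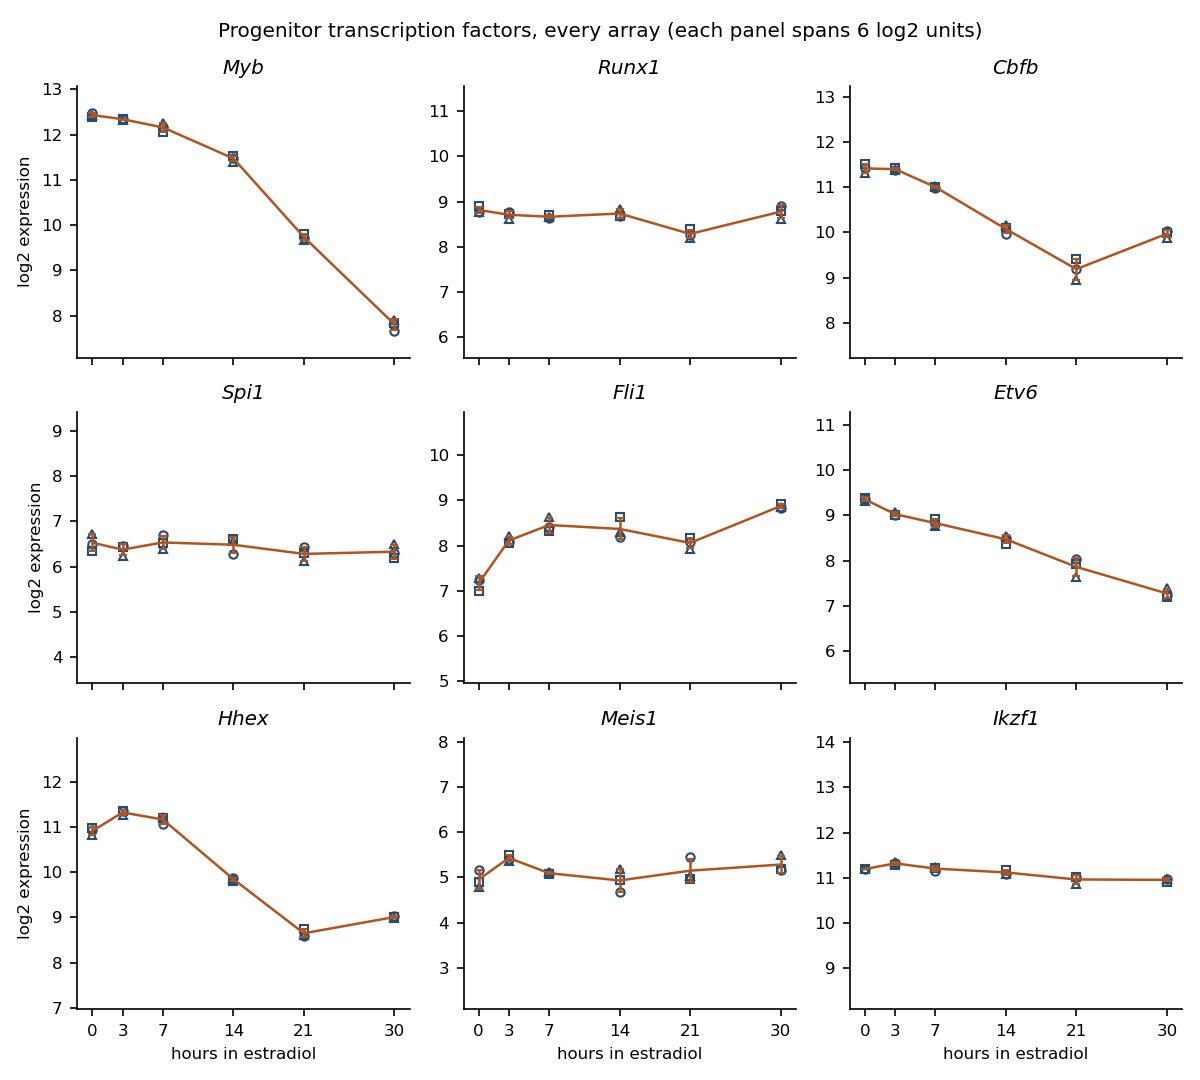
Log2 expression (y axis) of the 9 factors on each of the 18 arrays against hours in 20 nM estradiol (x axis), 1 panel per gene, with a symbol per replicate number, and a line through the time means with bars for the SD of 3 arrays. Every panel spans 6 log2 units, so slopes can be compared but levels of different genes cannot. Myb falls by 4.62 to its lowest mean at 30 h, Cbfb and Hhex reach their lowest mean at 21 h, and Fli1 is above its 0 h arrays at every later time.

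Because the median of all genes depends on how arrays are scaled, each member was also set against it. Scaling the arrays on 18 hybridisation controls in place of the deposited scale moved the median of all tested genes by -0.22 to 0.28 between comparisons, and at 30 h by 0.20. A change relative to that median does not depend on such a shift. At 30 h it was -4.72 for Myb, -2.17 for Etv6, -2.00 for Hhex, -1.54 for Cbfb, -0.33 for Ikzf1, -0.29 for Spi1, -0.13 for Runx1, 0.24 for Meis1 and 1.61 for Fli1. With control scaling 2 members stayed called higher and 4 lower at 30 h, Ikzf1 being lost, beside 39.3% and 20.3% of all genes.

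Myb encodes the transcription factor that keeps erythroid progenitors dividing. Its probe set read 12.48, 12.39 and 12.43 at 0 h, 12.34, 12.35 and 12.33 at 3 h, and 12.16, 12.05 and 12.26 at 7 h. It then read 11.49, 11.52 and 11.41 at 14 h, 9.72, 9.81 and 9.68 at 21 h, and 7.67, 7.84 and 7.91 at 30 h. Every array lay below every array of each earlier time, although the step from 0 to 3 h, -0.091, was not called (adjusted p = 0.374). The first called fall was that at 7 h (-0.27, SE 0.069, adjusted p = 0.00672), which control scaling did not call (-0.32, adjusted p = 0.413). Myb was 1.94-fold lower at 14 h, 6.47-fold lower at 21 h and 24.7-fold lower at 30 h (log2 -4.62, SE 0.069, adjusted p = 3.40e-17). Of all tested genes, 0.432% changed by as much at 30 h.

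The fall of Myb came late. On the probe set used it had covered 1.97% of its 30 h change at 3 h and 5.90% at 7 h. It had covered 20.7% at 14 h and 58.3% at 21 h. The steps from 14 to 21 h (-1.74) and from 21 to 30 h (-1.93) were the largest. The step from 7 to 14 h was -0.69 and was not called with control scaling (-0.41, adjusted p = 0.139). The probe set used, 1421317_x_at, carries a suffix for probes that may cross-hybridise with other transcripts. The changes of the other 2 Myb probe sets at 30 h were larger, -5.78 on 1450194_a_at and -6.59 on 1422734_a_at. The difference between them and the probe set used was itself called (limma on the within-array difference, adjusted p = 2.56e-06 and 7.80e-09). Such a difference was called for 48.4% of 10904 pairs of probe sets of 1 gene. These 2 probe sets changed by -2.64 and -2.89 from 14 to 21 h, and by less from 21 to 30 h (-1.77 and -1.82). From 14 to 21 h their difference from the probe set used was called too (adjusted p = 0.000475 and 6.45e-05), beside 12.4% of pairs. The size of the fall and its split between the late steps thus depend on the probe set, and its direction does not. The late steps are of unequal length, and changes per hour were not computed. By 30 h the probe set 1422734_a_at was at 4.45 ± 0.20 (SD, n = 3).

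**Figure D2:**
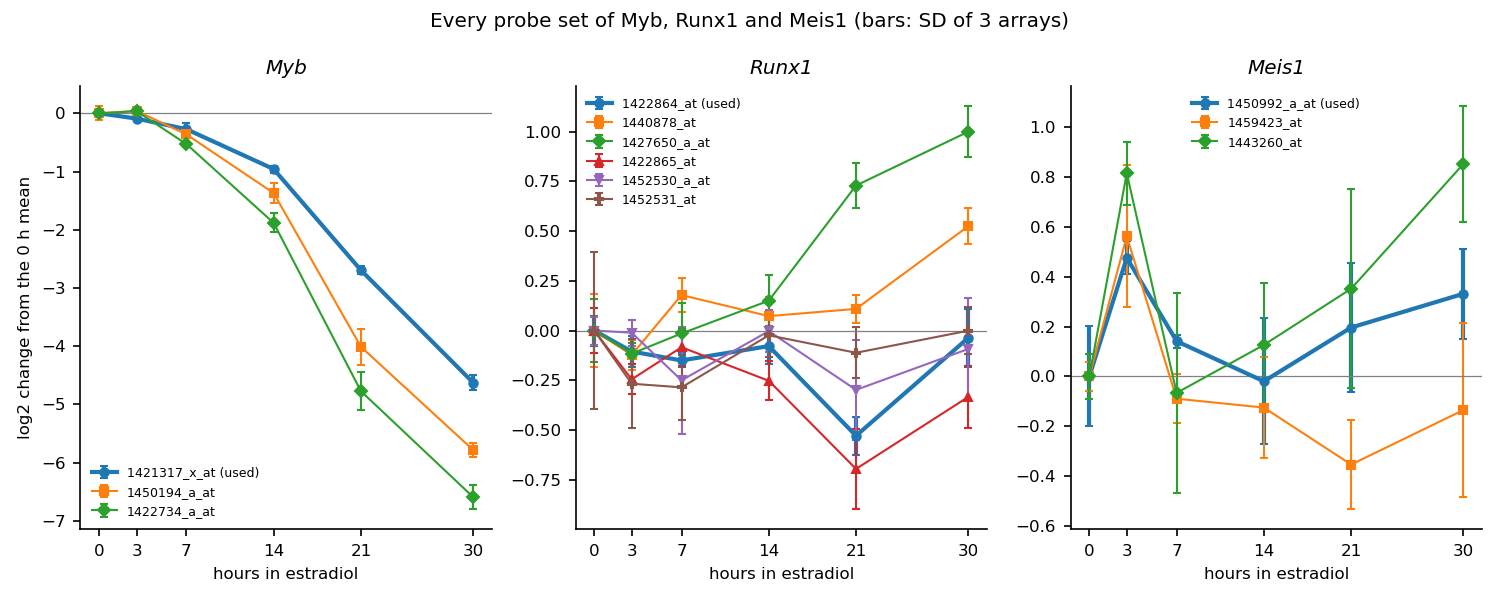
Log2 change from the 0 h mean (y axis) of every probe set of Myb, Runx1 and Meis1 against hours in estradiol (x axis), 1 panel per gene and 1 line per probe set, with bars for the SD of 3 arrays and a thick line for the probe set used. The 3 Myb lines all fall, with changes of -4.62, -5.78 and -6.59 at 30 h. The Runx1 lines part after 14 h, and at 30 h 1427650_a_at lies 1.0 from its 0 h mean and 1422865_at -0.33.

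Other genes of the MYB family and genes known as MYB targets, from lists drawn up from textbook knowledge, gave these values. This count and those of the lists that follow stand beside 36.6% of all tested genes higher and 33% lower at 30 h, or 39.3% and 20.3% with control scaling. Mybl1 and Mybl2, the other family members, were both lower at 30 h, with changes of -1.36 and -0.78, and Mybl2 is known for cell cycle genes. Of 9 MYB target genes on the platform 5 were tested, and 4 of these were lower at 30 h and 0 higher, with a median of -3.05. The receptor of stem cell factor, Kit, gave -4.77, the growth regulator Myc -3.18, the cyclin-dependent kinase Cdk6 -3.05 and the survival gene Bcl2 -2.33. The chaperone Hspa8 gave -0.0064 (adjusted p = 0.905). Bcl2 started at 5.39 and ended at 3.06, under the arrays' 40th percentile, and the 4 targets left out, Cd34, Mpo, Ctsg and Elane, were dim throughout.

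RUNX1 and CBFB form 1 complex, core-binding factor, in which RUNX1 reads DNA and CBFB strengthens its hold. The 2 transcripts did not move alike. Cbfb, which has 1 probe set, read 11.42, 11.52 and 11.31 at 0 h, 11.39, 11.43 and 11.38 at 3 h, and 10.97, 11.01 and 11.03 at 7 h. It went on to read 9.97, 10.10 and 10.16 at 14 h, 9.19, 9.42 and 8.96 at 21 h, and 10.04, 9.99 and 9.88 at 30 h. The 21 h arrays were the lowest, below all others, and the 30 h arrays overlapped only those of 14 h. Cbfb was 1.33-fold lower at 7 h (log2 -0.41, adjusted p = 0.00321), 2.53-fold at 14 h, 4.68-fold at 21 h (-2.23, SE 0.094, adjusted p = 1.00e-11) and 2.72-fold at 30 h (-1.44, adjusted p = 9.29e-10). From 21 to 30 h it rose by 0.78 (adjusted p = 6.53e-06). The fall at 7 h was not called with control scaling (-0.46, adjusted p = 0.142).

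Runx1 read 8.78, 8.90 and 8.76 at 0 h, 8.78, 8.72 and 8.63 at 3 h, and 8.64, 8.70 and 8.66 at 7 h. It then read 8.69, 8.68 and 8.85 at 14 h, 8.27, 8.39 and 8.20 at 21 h, and 8.91, 8.80 and 8.63 at 30 h. The arrays of 21 h lay below all others, and those of the other 5 times all lay between 8.63 and 8.91. Runx1 was called lower than at 0 h only at 21 h, with a change of -0.53, or 1.44-fold (SE 0.078, adjusted p = 2.20e-05). From 21 to 30 h it rose by 0.49 (adjusted p = 9.87e-05), back to -0.037 from 0 h, with a 95% interval from -0.20 to 0.13 (adjusted p = 0.688).

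The Runx1 values depend on the probe set, as 6 probe sets read the gene and did not move alike. On 1422865_at the same dip recurred, -0.44 from 14 to 21 h (adjusted p = 0.00421 over all 23632 probe sets tested one by one). It rose by 0.36 from 21 to 30 h (adjusted p = 0.0118), and its change at 30 h was -0.33 (adjusted p = 0.00987). On 1427650_a_at there was no dip: it rose by 0.58 from 14 to 21 h (adjusted p = 0.000478), and its change at 30 h was 1.0 (adjusted p = 2.32e-07). The difference between this probe set and the one used, 1.04 at 30 h, was called (adjusted p = 1.30e-05). On 1440878_at the change at 30 h was 0.52 (adjusted p = 7.23e-05). The 2 dimmest, 1452530_a_at and 1452531_at, gave -0.092 and -0.00050 at 30 h, neither called. With the mean of all its probe sets Runx1 gave 0.18 at 30 h (adjusted p = 0.0184) in place of -0.037, and -0.13 at 21 h (adjusted p = 0.0759) in place of -0.53. Which transcripts of the 2 start sites each probe set reads was not given in the sources used here. Of all pairs of probe sets of 1 gene, 3.87% were called in opposite directions at 30 h.

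Within each array, the difference between the Cbfb and Runx1 values changed by -1.41 from 0 h to 30 h. The 3 arrays of one time did not overlap those of the other, and a two-sided exact permutation test gave p = 0.1, the smallest that 3 against 3 arrays allow. It is 1 of 4 such differences, for which the Benjamini-Hochberg value was also 0.1. As this test could not fall under the threshold for calls, it decides nothing about the difference. Of 10 tested genes of the RUNX family and its partners, 4 were higher and 4 lower at 30 h, close to the shares of all genes, with a median of 0.011. The methyltransferase Prmt1 (-2.85), Cdk6 (-3.05) and the corepressor Sin3a (-0.75) fell, and the kinase Hipk2 rose by 0.97. Runx3 gave 0.063 (adjusted p = 0.735).

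The 3 ETS factors went 3 ways. Spi1 (PU.1), the myeloid and B-cell regulator, has 1 probe set. It lay between 6.35 and 6.73 at 0 h, 6.11 and 6.43 at 21 h and 6.19 and 6.49 at 30 h. Its change at 30 h was -0.20, with a 95% interval from -0.46 to 0.066 (adjusted p = 0.166), and its span over all times, 0.25, was smaller than that of most genes, 91.1% having as large a span. No comparison called it (F test adjusted p = 0.273), though the fall of -0.25 at 21 h (adjusted p = 0.0976) became -0.33 (adjusted p = 0.0466) without replicate 2 of 0 h. At 30 h 10 PU.1 target genes of myeloid cells were tested, of which 2 were higher and 3 lower, with a median of -0.21. The NADPH oxidase genes Ncf4 and Cyba went opposite ways, by 3.92 and -2.75. The adaptor Tyrobp changed by -2.07 and the macrophage growth factor receptor Csf1r by 0.64, from 3.48 near the dim limit. Cebpa, Itgam and Csf3r were under the filter.

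Fli1, a driver of megakaryocyte genes, was the only member called higher at every time against 0 h. It read 7.23, 6.99 and 7.28 at 0 h, 8.09, 8.05 and 8.20 at 3 h, and 8.40, 8.32 and 8.64 at 7 h. It then read 8.18, 8.63 and 8.30 at 14 h, 8.09, 8.16 and 7.93 at 21 h, and 8.83, 8.93 and 8.86 at 30 h. All 15 later arrays lay above the 3 arrays of 0 h. Fli1 was 1.93-fold higher at 3 h (log2 0.95, SE 0.11, adjusted p = 1.64e-05), so 55.4% of the 30 h change had come within 3 h. It was 2.44-fold higher at 7 h, 2.30-fold at 14 h, 1.86-fold at 21 h and 3.26-fold at 30 h (1.71, adjusted p = 1.15e-09).

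Between these rises the Fli1 level sagged. The step from 14 to 21 h was -0.31 (adjusted p = 0.0472) and the step from 21 to 30 h 0.81 (adjusted p = 2.75e-05). The first of these is near the threshold. It was not called without replicate 2 of 14 h (-0.18, adjusted p = 0.224) or replicate 3 of 21 h (-0.24, adjusted p = 0.156). It was also lost without replicate 1 of 0 h, any replicate of 3 h, replicate 1 of 7 h, replicate 3 of 14 h, replicate 1 of 21 h or any replicate of 30 h, 12 arrays in all, with adjusted p from 0.0540 to 0.224. It was lost too in 8 other settings of the analysis, control scaling and the mean of probe sets among them. The step from 3 to 7 h, 0.34, missed the threshold (adjusted p = 0.0548) and passed without replicate 2 of 0 h, replicate 1 or 2 of 14 h or replicate 3 of 21 h (adjusted p from 0.0247 to 0.0497).

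Of 13 megakaryocyte genes on the platform 8 were tested, and their binding by FLI1 or RUNX1 was not measured. At 30 h 3 were higher and 3 lower, near the shares of 36.6% and 33% among all genes, with a median of -0.29. Tubb1, a platelet tubulin, rose from 2.43 ± 0.37 (SD, n = 3) to 10.62 ± 0.017. Its start lies below the dim limit, so the size of this rise, 8.18 as read, is uncertain. The integrin Itgb3 rose by 2.05. The platelet glycoprotein Gp5 fell by 3.99 and the chemokine Pf4 by 2.34. Itga2b, the early megakaryocyte integrin, gave -0.20 (adjusted p = 0.188). The mean of the 13 genes per array lay between 4.15 and 4.34 at 0 h and between 4.52 and 4.55 at 30 h. This mean includes Tubb1, by far the largest change of the tested genes, so its rise does not describe the set. A mean without Tubb1 was not computed.

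Etv6, the ETS repressor needed by adult stem cells, was called lower at every time after 0 h. It read 9.37, 9.39 and 9.31 at 0 h, 9.001, 9.002 and 9.08 at 3 h, and 8.80, 8.93 and 8.76 at 7 h. It then read 8.50, 8.37 and 8.54 at 14 h, 8.03, 7.92 and 7.64 at 21 h, and 7.24, 7.19 and 7.40 at 30 h. The arrays of each time lay below all arrays of every earlier time. Its change was -0.33 at 3 h (adjusted p = 0.0123), -0.88 at 14 h and -2.08, a 4.23-fold fall, at 30 h (SE 0.088, adjusted p = 4.75e-12). Etv6 was the only member called lower at 3 h, and control scaling did not call it there (-0.23, adjusted p = 0.670). Control scaling also did not call its steps from 7 to 14 h (-0.080, adjusted p = 0.763) and from 21 to 30 h (-0.40, adjusted p = 0.141), and with the mean of its probe sets the first of these gave -0.22 (adjusted p = 0.139). A dimmer probe set, 1423401_at, gave -0.14 at 3 h (adjusted p = 0.590) and -1.05 at 30 h (adjusted p = 2.13e-05). The difference of 1.03 between both at 30 h was called (adjusted p = 0.000132), beside 48.4% of pairs of probe sets of 1 gene.

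Set against each other within the arrays, the 3 ETS factors parted by amounts larger than the spread among replicates. From 0 h to 30 h the Fli1 minus Etv6 difference changed by 3.79, Fli1 minus Spi1 by 1.90 and Etv6 minus Spi1 by -1.88. None of these overlapped between the times, and each exact permutation p was 0.1, the smallest possible. As it could not fall under the threshold for calls, that test decides nothing about these differences. Non-overlap was common, 72.3% of single tested genes showing it between 0 h and 30 h. The share among pairs of other genes was not computed. Among 16 other tested ETS genes 4 were higher and 8 lower at 30 h, with a median of -0.29. Etv5, a target of growth factor signalling, gave -4.92, the repressor Erf -3.09, Elf4 -2.54 and Ets2 -1.70. Elf1, known for erythroid and lymphoid genes, rose by 1.61, and Elk1, a target of MAP kinase signalling, by 1.18. Erg, an ETS factor of stem cells, and Ets1 were dim (3.77 and 3.48 at 0 h) and not called.

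Hhex, a homeobox repressor of early blood and endothelial cells, first rose and then fell. It read 10.93, 10.98 and 10.82 at 0 h, 11.35, 11.36 and 11.25 at 3 h, and 11.06, 11.20 and 11.23 at 7 h. It then read 9.88, 9.81 and 9.85 at 14 h, 8.59, 8.75 and 8.61 at 21 h, and 9.03, 9.003 and 8.99 at 30 h. The 3 h and 7 h arrays were all above the 0 h arrays, and the arrays of 14 h and later all below them. Hhex was higher by 0.41 at 3 h (SE 0.063, adjusted p = 0.000172) and by 0.25 at 7 h (adjusted p = 0.00570). Its change was then -1.06 at 14 h, -2.26 at 21 h (4.80-fold lower, adjusted p = 8.75e-14) and -1.90 at 30 h. With control scaling the early rises were 0.51 (adjusted p = 0.127) and 0.21 (adjusted p = 0.687). A rise at 3 h with a fall at 30 h was called for 1 of 9 members, Hhex, beside 1.38% of all genes. Its fall from 7 to 14 h, -1.32, was among the largest of all genes in that step, 0.472% changing by as much.

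Meis1, the HOX cofactor of stem cells, was dim, with array values between 4.68 and 5.50, and its changes were small. At 3 h it read 5.41, 5.50 and 5.37, against 5.17, 4.90 and 4.78 at 0 h, which do not overlap. The change of 0.48 (SE 0.14, adjusted p = 0.0212) was lost without replicate 2 or 3 of 0 h or replicate 2 of 3 h (0.39 to 0.45, adjusted p from 0.0624 to 0.0835) and with control scaling (0.57, adjusted p = 0.0819). The other 2 Meis1 probe sets gave 0.82 and 0.56 at 3 h, both called. At 30 h they parted, 1443260_at giving 0.85 (adjusted p = 0.00161) and 1459423_at -0.14 (adjusted p = 0.477). On the probe set used the change at 30 h was 0.33 (adjusted p = 0.0477), with arrays that overlap those of 0 h by 0.0032. That call was lost without any of 12 of the 18 arrays, namely replicates 2 and 3 of 0 h, all of 3 h, all of 7 h, replicate 2 of 14 h, replicate 3 of 21 h, and replicates 2 and 3 of 30 h. The adjusted p was then 0.0516 to 0.200, and without replicate 3 of 30 h the change was 0.23. Of 11 tested HOX, MEIS and PBX genes 4 were higher and 1 lower at 30 h, with a median of 0.12. Pbx2 fell by 0.88, and Hoxc6, Hoxa7 and Hoxa5 rose by 0.64, 0.58 and 0.50, each from a level of at most 5.38.

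Ikzf1 (Ikaros), a zinc finger factor that recruits the NuRD chromatin complex, changed least of the called members. It read 11.19, 11.20 and 11.19 at 0 h, 11.32, 11.29 and 11.35 at 3 h, and 11.16, 11.22 and 11.24 at 7 h. It then read 11.09, 11.18 and 11.08 at 14 h, 11.01, 11.03 and 10.85 at 21 h, and 10.98, 10.92 and 10.97 at 30 h. The 3 h arrays lay above all others and the 21 h and 30 h arrays below all others. The 3 h change of 0.13 was not called (adjusted p = 0.106). The falls at 21 h (-0.23, adjusted p = 0.00178) and 30 h (-0.24 or 1.18-fold, adjusted p = 0.00105) were called, but not with control scaling (-0.22, adjusted p = 0.409, and -0.036, adjusted p = 0.877). With the mean of both its probe sets the changes turned to 0.035 and 0.0032. The other probe set, 1421303_at, was dim (3.80 at 0 h) and gave 0.25 at 30 h (adjusted p = 0.0657).

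The fall of Ikzf1 from 14 to 21 h, -0.16, was near the threshold (adjusted p = 0.0392). It was lost without any of 8 arrays, namely replicate 3 of 21 h (-0.10, adjusted p = 0.154), replicates 1 and 2 of 14 h, all of 3 h, replicate 2 of 7 h and replicate 3 of 30 h. Of 16 tested genes of the Ikaros family and NuRD subunits 2 were higher and 11 lower at 30 h, with a median of -0.57, and 8 were lower with control scaling. The family member Ikzf4 fell by 2.29, the remodeller Chd4 by 1.68, the subunit Mbd3 by 1.26 and the deacetylase Hdac2 by 1.19. Ikzf5, another family member, rose by 1.15. A list of corepressors of HHEX and ETV6 and related proteins had 8 tested genes, whose use by either factor was not tested. Of these 4 were lower (2 with control scaling) and 2 higher, with a median of -0.23. Sin3a and Tle5 fell by 0.75 and 0.74, and Tle3 and Tle4 rose by 0.73 and 0.47.

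**Figure D3:**
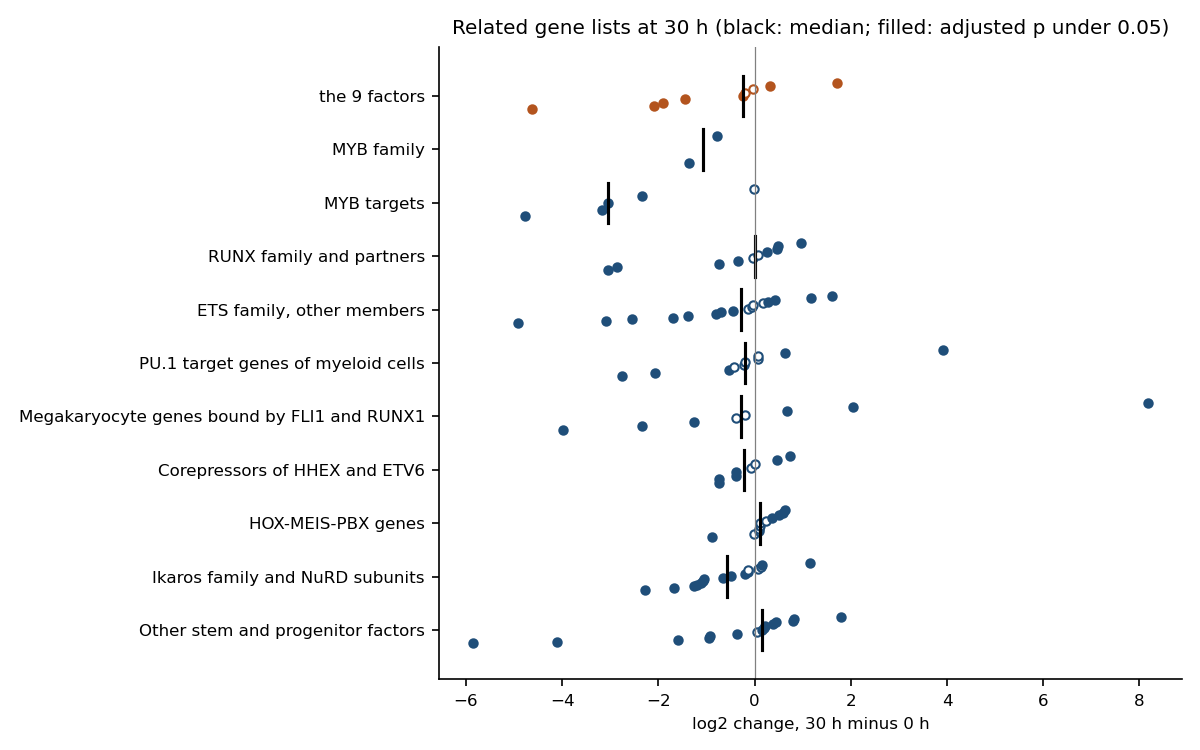
Log2 change from 0 h to 30 h (x axis) of the tested genes of each list (y axis), with the 9 factors on top, 1 point per gene, filled where the adjusted p was under 0.05, and a black mark at each median. The MYB targets have the lowest median, -3.05, the RUNX partners lie about 0 (median 0.011), and the megakaryocyte genes spread from -3.99 to 8.18, the latter being Tubb1, whose start lies below the dim limit.

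Read step by step, the times at which the members moved differed. At 3 h 3 members were higher and 1 lower than at 0 h, beside 11.2% and 14.7% of all genes, 25.9% being called in either direction. At 7 h 2 were higher and 3 lower (15.3% and 16.3%, in all 31.6%), at 14 h 1 and 4 (22.2% and 22.7%, in all 44.9%), and at 21 h 1 and 6 (31.4% and 28.6%, in all 59.9%). With control scaling the members called were 1 higher and 0 lower at 3 h and 1 and 1 at 7 h, beside 3.64% and 2.24%, and 4.31% and 5.13%, of all genes. The arrays did not overlap those of 0 h for 6 members at 3 h (46% of all genes), 6 at 7 h (45.7%), 6 at 14 h (51.9%) and 7 at 21 h (61.1%). The step from 3 to 7 h called 1 member, Cbfb, lower and 0 higher (5.14% and 9.8% of all genes, in all 14.9%). That from 7 to 14 h called 4 lower and 0 higher (10.8% and 11.5%, in all 22.3%), the 4 being Myb, Cbfb, Etv6 and Hhex. Control scaling called Cbfb and Hhex of these, 2 members lower beside 1.24% of all genes, and the call of Cbfb from 3 to 7 h was lost. The arrays of neighbouring times did not overlap for 7 members from 3 to 7 h (39.5%) and 4 from 7 to 14 h (37.5%). Both of the steps from 7 to 14 h and from 14 to 21 h called the same 4, beside 6.45% of all genes.

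From 14 to 21 h 7 of 9 members were lower and 0 higher, beside 17.5% and 15.7% of all genes (33.2% in all), with a median change of -0.45 among the members and 0.033 among all genes. Spi1 and Meis1 were the 2 not called. Of the 7, Fli1 and Ikzf1 were near the threshold. Both were lost with quantile normalization, equal medians, no filter, every probe set tested or only the arrays compared, leaving 5 lower. Control scaling also called 5 lower, beside 13% of all genes, and the mean of probe sets 4. The arrays of 7 members did not overlap, beside 39.4%. From 21 to 30 h 4 members were higher and 2 lower, beside 18% and 22.5% of all genes (40.5% in all), and the arrays of 6 did not overlap (46.6%).

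**Figure D4:**
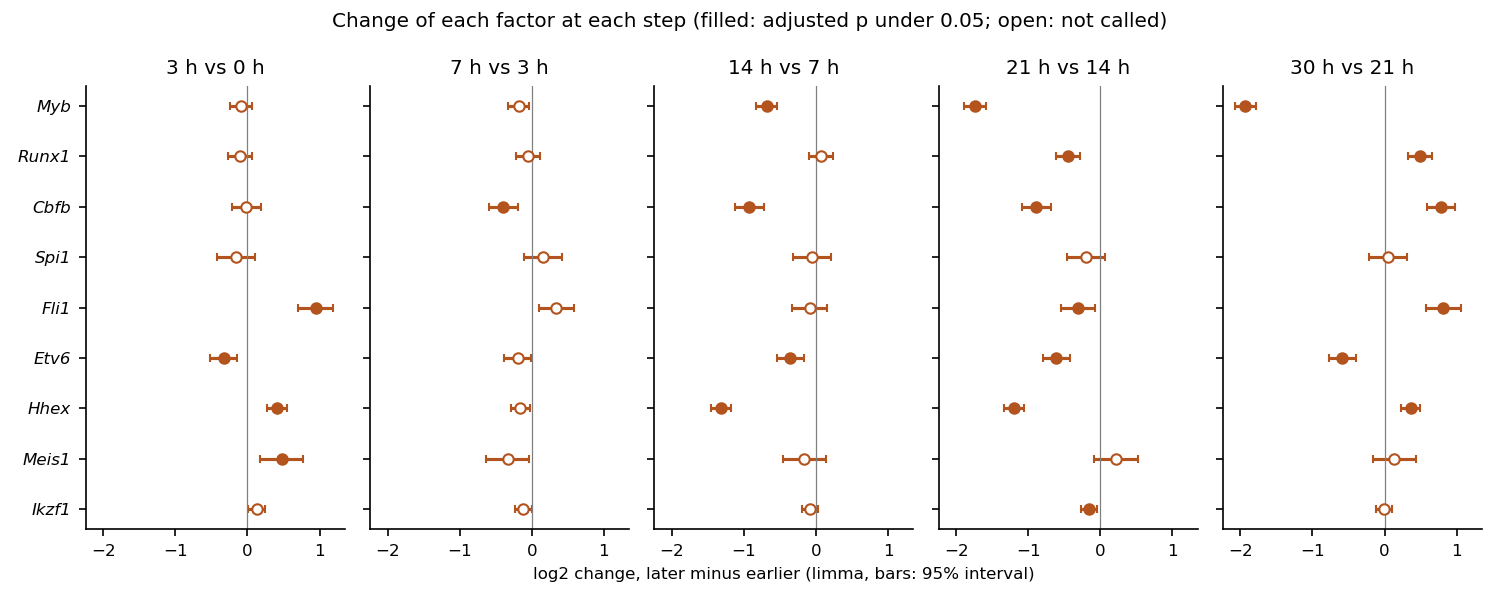
Log2 change (x axis) of each member (y axis) in each step between neighbouring times (1 panel per step), with bars for the 95% interval, filled points where the limma adjusted p was under 0.05 and open points elsewhere. From 14 to 21 h 7 members are filled below 0, and from 21 to 30 h Runx1, Cbfb, Fli1 and Hhex are filled above 0 while Myb and Etv6 are filled below it.

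The 4 members higher from 21 to 30 h, Runx1, Cbfb, Fli1 and Hhex, were all lower from 14 to 21 h. A fall followed by a rise at these steps was called for 221 of all tested genes, 1.74%. This pattern was not among the planned comparisons, so its share is a description only. Over 29 alternative settings that share ranged from 0.708% to 3.06%, and Cbfb and Hhex showed the pattern in all 29, Runx1 in 28 and Fli1 in 9. Runx1 was lost with the mean of its probe sets, and the 28 settings that kept it used the same probe set. Of its other probe sets only 1422865_at was called lower from 14 to 21 h, and 1427650_a_at rose by 0.58. Cbfb and Hhex have 1 probe set each, so settings that change the probe set could not alter their values. The patterns of the 4 genes are all read against the same 3 arrays of 21 h. The 3′ to 5′ gap of the control probe sets was also wider at 21 h and at 30 h than at 14 h. For Actb it was 1.87 at 14 h, 2.15 ± 0.24 at 21 h and 2.20 at 30 h, for Gapdh 1.19, 1.52 ± 0.27 and 1.52, and for Tfrc 2.03, 2.43 ± 0.17 and 2.41. At 30 h the gap stayed close to its 21 h width for all 3 controls, and its part in the changes of the 4 genes was not tested.

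Genes whose profile over the 18 arrays was most like that of a member were sought among 3232 other genes with a span of at least 1, for the 5 members with such a span. The correlations are given as descriptions, since all arrays share 1 time course and its scaling. Myb was most like Car1, a carbonic anhydrase (r = 0.999), Atic, an enzyme of purine synthesis (0.996), and Nkrf (0.996). Car1 fell by 6.24 at 30 h. Etv6 was most like Pop1, an RNase P subunit (0.994), Txlng (0.993) and Ndufaf4, a complex I assembly factor (0.992). Hhex was most like Sptssa (0.986) and the glycolytic genes Pkm (0.984) and Pgam1 (0.983). Cbfb was most like the amino acid transporter Slc7a8 (0.985), the RNA-binding Msi2 (0.985) and Tmem164 (0.984). Fli1 had lower values, with Jmy (0.950), Nsmaf (0.950) and the receptor Lgr4 (0.944). Among the members themselves Myb and Etv6 correlated at 0.965, Cbfb and Hhex at 0.950, and Fli1 and Etv6 at -0.70.

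Among 15 other tested factors of stem and progenitor cells 8 were higher and 6 lower at 30 h, with a median of 0.15, and 5 and 5 with control scaling. The 8 include Klf1 (0.80), which is also on the erythroid marker list, as well as Nfe2 (0.82) and Tal1 (0.19). They also include Hlf and Id2, dim at 0 h (3.31 and 3.54). The count therefore does not describe stem cell factors alone. Lyl1 fell by 5.85 and Gata2, the GATA factor of early progenitors, by 4.10. Zfpm1, the GATA1 cofactor FOG1, rose by 1.81 and Tcf3, an E protein, fell by 1.58.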

How the data were processed

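RNA of 18 arrays, 3 at each of 6 times, was read on Affymetrix GeneChips after Trizol extraction and biotin labelling, per the labels' protocols. The authors deposited log2 values of 45101 probe sets on each array. Base 2 was inferred, as no other common base reaches the highest value (14.4) from a scanner signal. The probe summary, background correction and scaling were not given in the sources used here. Medians of the arrays ranged from 4.04 to 4.09, a nearly common scale to which all changes are relative.

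Genes were named through the platform annotation, using the 34958 probe sets with 1 gene. Of these 34754 had an Entrez identifier in the RefSeq gene table, which changed 0 symbols. The brightest probe set per gene was used, and a gene was tested if 3 or more arrays had it above their 40th percentile. All arrays were fitted together in limma 3.58.1 (R 4.3.3), with a mean per time and 12 residual degrees of freedom, two-sided, with Benjamini-Hochberg adjustment over 12720 genes and a threshold of 0.05. A probe set compared with another was fitted as the within-array difference, added after the data were seen. The number of arrays limits the precision: n = 3 behind each mean. The code was tested on simulated data. No 2 arrays were identical (0 pairs).

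Members and gene lists were chosen with earlier results of these data known, so no list count is independent support. Patterns that join comparisons were not planned, so their shares among all genes are descriptions too. Named were all members, up to 4 called genes per list, by size of change at 30 h, and the 3 genes most like each member spanning at least 1. Other genes named were chosen after their values were seen. Replicate numbers did not pair arrays. Alternatives are listed in the closing section.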

Additional observations from a re-analysis of the deposited data

How the results depend on the processing

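Each of 81 member results (9 genes, 9 comparisons) was recomputed under 11 alternatives. No call was gained, lost or reversed for 79 of 81 with quantile normalization, equal medians or every probe set tested, 78 without the filter or with a trended and robust variance, 80 with a 60th-percentile filter or without x and s probe sets, 76 with only the arrays compared, 67 with control scaling and 65 with the mean of probe sets. The mean of probe sets changed the sign of Ikzf1 at 21 h (0.035, adjusted p = 0.681) and 30 h (0.0032, adjusted p = 0.970), and both calls were lost. It also changed the sign of Runx1 at 30 h (0.18, adjusted p = 0.0184), where a call was gained. The cause was not tested. Among the results counted as keeping their side of the threshold, 23 uncalled values changed sign. Without 1 array, 1418 of 1458 results kept their side of the threshold, 20 of them uncalled with a changed sign.

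Control scaling (18 controls) called 463 higher and 285 lower at 3 h, 548 and 653 at 7 h, 2791 and 812 at 14 h, 2402 and 2327 at 21 h and 4999 and 2585 at 30 h, against 1420 and 1871, 1944 and 2077, 2829 and 2887, 3989 and 3635, and 4651 and 4195. By step it called 127 and 173 (3 to 7 h), 1315 and 158 (7 to 14 h), 122 and 1656 (14 to 21 h) and 1680 and 753 (21 to 30 h), against 1247 and 654, 1469 and 1372, 1992 and 2231, and 2286 and 2864. Members called became 1 and 0 at 3 h, 1 and 1 at 7 h, 0 lower from 3 to 7 h, 2 lower from 7 to 14 h and 1 lower from 21 to 30 h. With only the arrays compared, 1068 and 1398 genes were called from 14 to 21 h.

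The count of members higher at 30 h was 1 without the filter, with only the arrays compared and with a trended and robust variance. From 3 to 7 h 1 member was higher with the 60th-percentile filter, the mean of probe sets, only the arrays compared or the trended variance, and 2 lower without x and s probe sets, with only the arrays compared or with the trended variance. With the mean of probe sets 0 members were lower at 3 h, 4 from 3 to 7 h and 4 from 14 to 21 h.

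With the replicate number as a block, 78 of 81 results kept their side of the threshold. Meis1 at 30 h (adjusted p = 0.0610), Fli1 (0.0628) and Ikzf1 (0.0565) from 14 to 21 h were lost, leaving 1 member higher at 30 h. Deviations of same-numbered arrays correlated at -0.17 to 0.19 over 45 pairs, so the numbers show no pairing.

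Without 1 array, 2 to 3 members were higher at 3 h, 1 to 2 at 30 h, 6 to 7 lower at 21 h, 0 to 1 higher from 3 to 7 h and 5 to 7 lower from 14 to 21 h. Of all genes, 404 to 774 were lower from 3 to 7 h. Values near the arrays' dim end may understate folds.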
